A study of Mus musculus with 40 samples.

Results

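The 10 genes described here, *Gata3*, *Foxa1*, *Elf5*, *Ehf*, *Elf3*, *Spdef*, *Grhl2*, *Ovol1*, *Sox9* and *Stat5a*, encode transcription factors linked to the luminal lineage of the mammary gland. They were taken by name, with no cut on their levels, and all 10 were found by their Ensembl IDs among the 23180 genes that the adult and the pubertal count table share. RNA was sequenced in bulk from wildtype female FVB/N mice, from luminal cells, basal cells, adipocytes and non-adipose stromal cells, the last called fibroblasts. The 40 libraries come from mice of 34 to 36 days, in puberty (2 libraries per cell type), and from mice of 14 to 16 weeks, taken in proestrus, estrus, metestrus or diestrus (2 libraries per cell type and stage, so 8 adult ones per cell type). Luminal, basal and stromal cells were sorted on EpCAM and CD49f after removal of blood and endothelial cells. Adipocytes were the floating fraction of the digest and were not sorted, and the fibroblasts were defined by the absence of epithelial surface proteins. A library pools cells of 2 or 3 adult mice or of 4 pubertal mice, so the spread between replicates is a spread between pools. Gene counts per library ran between 8991222 and 22760563 in the adult set and between 11774264 and 19033586 in the pubertal set. Puberty and adult libraries were sequenced in separate runs, so age and run cannot be told apart.

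The mammary epithelium is a bilayer of luminal cells, which face the lumen and make milk, and basal cells, which contract and rest on the basement membrane. The luminal layer holds hormone-sensing cells, which carry receptors for estrogen and progesterone, and cells of the secretory lineage, which respond to prolactin and later make milk. GATA, forkhead, ETS, grainyhead and STAT factors are known to direct these fates, and several of them also keep up cell junctions and the epithelial state in other tissues.

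The labelled cell types carried their markers, and the fibroblast libraries also held 811 to 2195 CPM of 4 endothelial markers, whose part in the fibroblast levels was not tested. A list of 5 luminal markers (*Krt8*, *Krt18*, *Krt19*, *Muc1* and *Wfdc18*) summed to between 15563 and 19850 CPM in the adult luminal libraries, against 1430 to 1984 CPM in basal cells, 121 to 1076 CPM in adipocytes and 21.8 to 206 CPM in fibroblasts (CPM, a gene's count relative to the library's total, with totals scaled across all 40 libraries). A list of 8 basal markers, among them *Krt5* and *Krt14*, summed to between 27.8 and 49.5 CPM in adult luminal libraries, against 14253 to 22143 CPM in basal cells. Adult adipocyte libraries held 3058 to 13925 CPM of adipocyte markers such as *Adipoq*. They also held 2943 to 5922 CPM of fibroblast markers such as *Col1a1* and 395 to 1221 CPM of the endothelial markers. In pubertal adipocyte replicates 1 and 2 the fibroblast markers (9003 and 17854 CPM) exceeded the adipocyte markers (6924 and 2446 CPM). The part of stromal and endothelial cells in the adipocyte levels was not tested. A total of 4 adipocyte libraries stood apart by the luminal and basal lists. Diestrus replicate 1 and pubertal replicate 1 held 1076 and 1019 CPM of luminal markers, and diestrus replicate 2 and pubertal replicate 2 held 4405 and 2585 CPM of basal markers, mostly the keratins *Krt5*, *Krt14* and *Krt17*.

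In adult glands the factors were luminal genes to very different degrees. Luminal cells had higher levels than basal cells for 9 of the 10 factors (edgeR quasi-likelihood test, adjusted p under 0.05 over all genes), with *Grhl2* as the exception. Of all 15077 genes tested, 73.6% differed between luminal and basal cells, 35.3% higher and 38.3% lower in luminal cells, so calls are common in this comparison. The log2 fold change had a median of 2.21 over the 10 factors, beside -0.04 over all genes, and it ran from 0.29 for *Grhl2* to 8.07 for *Elf5*. Against adipocytes all 10 were higher in luminal cells, where 81.2% of all genes were called, 38.6% higher and 42.6% lower (median log2 fold change 4.29 over the factors and -0.07 over all genes). Against fibroblasts all 10 were again higher, where 81% of all genes were called, 40.9% higher and 40.2% lower (median 7.18 over the factors and 0.02 over all genes). In libraries of sorted or floated cells, fewer cells that transcribe a gene and less RNA of it per cell cannot be told apart.

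**Figure D1:**
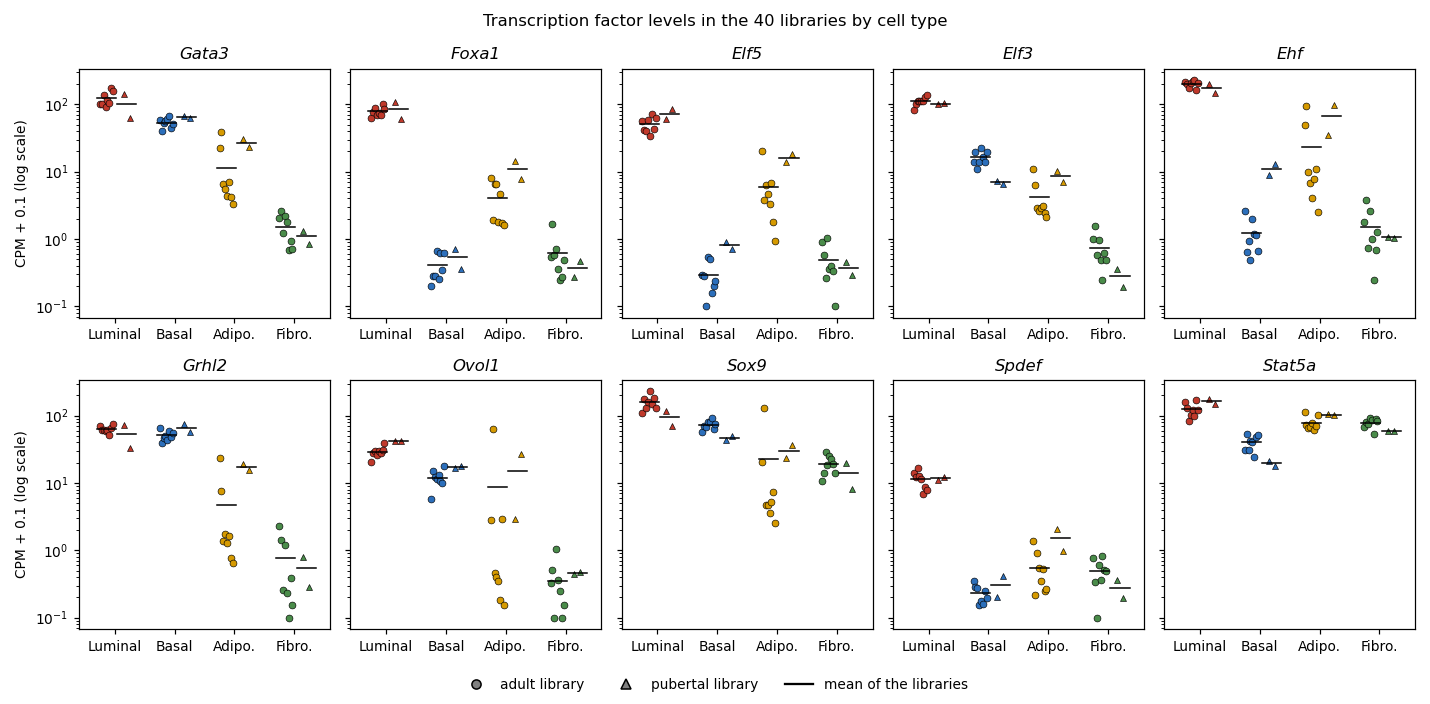
Levels of the 10 transcription factors in each library, as CPM + 0.1 on a log scale, for luminal cells, basal cells, adipocytes and fibroblasts. Circles are adult libraries, triangles pubertal ones, and lines are means. *Foxa1*, *Elf5*, *Ehf* and *Spdef* separate luminal from basal cells by far the widest, while the *Grhl2* points of both epithelial types overlap.

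*Gata3* (ENSMUSG00000015619, chromosome 2, 9857078 to 9890034, minus strand, GRCm38) encodes a zinc finger factor that is needed to form and maintain luminal cells. It had between 90.1 and 173 CPM in adult luminal libraries (median 109.6), against 40.1 to 66.6 CPM in basal cells (median 54.7), 3.19 to 38.8 CPM in adipocytes (median 5.87) and 0.585 to 2.54 CPM in fibroblasts (median 1.40). Every luminal library was above every library of the other types, yet basal cells still held 43.8% of the luminal mean. The log2 fold change over basal cells was 1.17 (standard error 0.14, edgeR adjusted p = 2.44e-07), over adipocytes 3.95 and over fibroblasts 6.51. Basal cells were in turn above fibroblasts for *Gata3*, by a log2 fold change of 5.34 (standard error 0.19, edgeR adjusted p = 1.42e-15). Among the adult types *Gata3* marked both epithelial layers, with the higher level in the luminal one.

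*Foxa1* (ENSMUSG00000035451, chromosome 12, 57540628 to 57546916, minus strand) encodes a forkhead factor that opens chromatin for the estrogen receptor. It had 62.9 to 101.5 CPM in adult luminal libraries (median 75.4), against 0.0981 to 0.561 CPM in basal cells (median 0.216), 1.51 to 7.98 CPM in adipocytes (median 3.16) and 0.146 to 1.60 CPM in fibroblasts (median 0.418). No library of another type came near the lowest luminal one. The 8 basal libraries together held 45 *Foxa1* reads, against 14468 in the luminal ones. The log2 fold change over basal cells was 8.03 (standard error 0.34, edgeR adjusted p = 2.13e-14).

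*Elf5* (ENSMUSG00000027186), an ETS factor that drives the secretory lineage downstream of the prolactin receptor, had 34.1 to 71.4 CPM in adult luminal libraries (median 49.1), against 0 to 0.449 CPM in basal cells (median 0.161), 0.838 to 20.1 CPM in adipocytes (median 4.12) and 0 to 0.933 CPM in fibroblasts (median 0.275). The basal libraries held 26 *Elf5* reads in all, against 9245 in the luminal ones. The luminal range lay above every other library, and the log2 fold change over basal cells was 8.07 (standard error 0.47, edgeR adjusted p = 2.79e-12).

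*Ehf* (ENSMUSG00000012350), an ETS factor restricted to epithelia, was the most abundant of the factors by CPM in adult luminal cells, with 163 to 226 CPM (median 205). It had 0.392 to 2.50 CPM in basal cells (median 0.945), 2.40 to 93.2 CPM in adipocytes (median 8.77) and 0.146 to 3.66 CPM in fibroblasts (median 1.04). Luminal libraries were above all others, with a log2 fold change of 7.60 over basal cells (standard error 0.37, edgeR adjusted p = 2.2e-13). *Elf5* and *Ehf* are neighbours on chromosome 2. They lie 108409 bp apart with 0 coding genes between them and point away from each other (*Elf5* 103411688 to 103450989, plus strand, and *Ehf* 103263433 to 103303278, minus strand, GRCm38). Over the 32 adult libraries their log2 CPM had a Pearson r of 0.931, a value that mostly reflects the differences between cell types.

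*Spdef* (ENSMUSG00000024215, chromosome 17, 27714352 to 27728955, minus strand), an ETS factor known from secretory epithelia, was the least abundant of the factors in luminal cells but followed the same pattern. It had 6.76 to 16.8 CPM in adult luminal libraries (median 11.7), against 0.0561 to 0.245 CPM in basal cells (median 0.122), 0.114 to 1.25 CPM in adipocytes (median 0.338) and 0 to 0.731 CPM in fibroblasts (median 0.401). A total of 19 *Spdef* reads were counted over the 8 basal libraries, against 2072 over the luminal ones, and the log2 fold change was 6.42 (standard error 0.39, edgeR adjusted p = 7.06e-12). *Foxa1*, *Elf5*, *Ehf* and *Spdef* thus form the group of 4 whose adult basal mean was under 2% of the luminal mean. Of the 5 luminal markers, *Krt8* and *Krt18* made up most of the sum in adult basal libraries (medians of 1380 and 304 CPM), and the other 3 had low basal medians. *Krt19* had a median of 3027 CPM in luminal and 37.5 CPM in basal cells, *Muc1* 51.1 CPM in luminal and 0.993 CPM in basal cells, and *Wfdc18* 241 CPM in luminal and 1.53 CPM in basal cells.

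The windows just upstream of RefSeq start sites of *Foxa1*, *Elf5* and *Spdef* are shown because these genes shared the near absence from basal cells. No window was available for *Ehf*, the other gene of that group. Each is 240 bases long, runs from 250 to 11 bases before a RefSeq start (GRCm38.p6, written 5′ to 3′ on the strand of the gene) and overlaps no annotated exon. Capitals mark a match to a motif. Foxa1 is at chr12:57546122-57546361 (minus strand) and Elf5 at chr2:103423818-103424057 (plus strand), both at an inner start within the annotated gene span. Spdef is at chr17:27728962-27729201 (minus strand).
Foxa1: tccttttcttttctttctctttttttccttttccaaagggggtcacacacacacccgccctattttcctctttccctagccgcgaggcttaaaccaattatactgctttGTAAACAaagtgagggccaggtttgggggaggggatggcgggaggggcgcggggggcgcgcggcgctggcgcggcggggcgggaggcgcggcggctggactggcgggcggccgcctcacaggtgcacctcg
Elf5: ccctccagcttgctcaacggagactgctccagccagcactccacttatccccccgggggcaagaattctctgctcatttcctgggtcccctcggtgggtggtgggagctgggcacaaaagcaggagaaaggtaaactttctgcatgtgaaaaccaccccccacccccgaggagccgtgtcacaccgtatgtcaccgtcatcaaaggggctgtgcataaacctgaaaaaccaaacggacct
Spdef: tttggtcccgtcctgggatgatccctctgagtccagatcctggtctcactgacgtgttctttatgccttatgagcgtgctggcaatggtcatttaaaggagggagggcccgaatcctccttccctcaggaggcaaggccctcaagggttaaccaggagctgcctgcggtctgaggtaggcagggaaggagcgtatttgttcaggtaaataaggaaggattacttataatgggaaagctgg
A total of 6 motifs of the factors' own families were searched on both strands, the forkhead motif TGTTTAC, the motif AGATAA of GATA factors, the ETS motif CGGAAGT, the grainyhead motif AACCGGTT, the STAT motif TTCNNNGAA and the SOX motif ACAATGG. The *Foxa1* window held the forkhead letters on the opposite strand, 141 bases before that inner start. Of 32851 windows of the same length, 3.06% hold these letters. The windows of *Elf5* and *Spdef* shown here held none of the 6. Of all windows, 9.74% held the GATA letters, 4.39% the ETS letters, 0.116% the grainyhead letters, 6.77% the STAT letters and 2.95% the SOX letters. Windows of *Gata3*, *Elf3*, *Stat5a* and of another *Elf5* start were searched too, and of these only the other *Elf5* window had a match, to the SOX letters.

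*Elf3* (ENSMUSG00000003051, chromosome 1, 135253575 to 135258568, minus strand), a further ETS factor of epithelia, was luminal by a smaller margin. It had 81.0 to 138 CPM in adult luminal libraries (median 112), against 10.9 to 22.7 CPM in basal cells (median 15.1), 2.01 to 10.997 CPM in adipocytes (median 2.80) and 0.146 to 1.48 CPM in fibroblasts (median 0.505). The groups did not overlap between luminal cells and any other type. The log2 fold change was 2.79 over basal cells (standard error 0.13, edgeR adjusted p = 1.38e-13), 4.997 over adipocytes and 7.61 over fibroblasts, the largest of the 10 in the last comparison. *Elf3* was also 4.82 higher on the log2 scale in basal cells than in fibroblasts (standard error 0.19, edgeR adjusted p = 4.8e-15).

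*Grhl2* (ENSMUSG00000022286, chromosome 15, 37233036 to 37363569, plus strand), a grainyhead factor that activates genes of cell junctions, was the only factor that was not called between luminal and basal cells. It had 50.8 to 74.1 CPM in adult luminal libraries (median 60.5), against 38.5 to 64.4 CPM in basal cells (median 49.5), 0.559 to 23.1 CPM in adipocytes (median 1.41) and 0 to 2.22 CPM in fibroblasts (median 0.227). The luminal and basal ranges overlapped, and the log2 fold change was 0.29 (standard error 0.19, edgeR adjusted p = 0.176). Without adipocyte diestrus replicate 2 it was 0.33 and passed the threshold (edgeR adjusted p = 0.0346). Both epithelial types stood far above fibroblasts, luminal cells by a log2 fold change of 7.50 and basal cells by 7.22.

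*Ovol1* (ENSMUSG00000024922, chromosome 19, 5549136 to 5560646, minus strand), a zinc finger repressor that holds back mesenchymal genes, had 20.5 to 38.6 CPM in adult luminal libraries (median 28.8), against 5.58 to 17.6 CPM in basal cells (median 11.8), 0.0559 to 62.4 CPM in adipocytes (median 0.333) and 0 to 0.933 CPM in fibroblasts (median 0.184). Luminal cells were above basal cells in every library, with a log2 fold change of 1.28 (standard error 0.43, edgeR adjusted p = 0.0106). *Sox9* (ENSMUSG00000000567, chromosome 11, 112782224 to 112787760, plus strand), an HMG box factor of luminal progenitors that also acts in cartilage, skin and hair, had 109.6 to 231 CPM in luminal libraries (median 155), against 56.8 to 91.3 CPM in basal cells (median 72.8), 2.46 to 132 CPM in adipocytes (median 4.88) and 10.7 to 28.7 CPM in fibroblasts (median 18.7). Its log2 fold change over basal cells was 1.12 (standard error 0.26, edgeR adjusted p = 0.000696). For both genes the highest adipocyte value lies inside or above the luminal range and belongs to diestrus replicate 2. Both calls over basal cells were lost when the 4 stages of a cell type were treated as 1 group, with the same fold changes (edgeR adjusted p = 0.127 for *Ovol1* and 0.061 for *Sox9*). *Sox9* was also the factor with the clearest signal in fibroblasts after *Stat5a*, and basal cells were above them by a log2 fold change of 1.99.

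*Stat5a* (ENSMUSG00000004043, chromosome 11, 100859351 to 100885169, plus strand) encodes the factor that prolactin and growth hormone activate, and it was the only one of the 10 whose adult luminal range overlapped with those of both adipocytes and fibroblasts. It had 83.7 to 170 CPM in adult luminal libraries (median 123), against 24.2 to 52.5 CPM in basal cells (median 40.8), 62.1 to 113 CPM in adipocytes (median 71.0) and 52.9 to 92.9 CPM in fibroblasts (median 81.3). Luminal libraries did not overlap with those of basal cells, which were the lowest. The log2 fold change was 1.63 over basal cells (standard error 0.15, edgeR adjusted p = 5.55e-09), 0.64 over adipocytes (standard error 0.15, edgeR adjusted p = 0.000559) and 0.64 over fibroblasts (standard error 0.15, edgeR adjusted p = 0.00056). Basal cells were below fibroblasts, with a log2 fold change of -0.98 (standard error 0.15, edgeR adjusted p = 5.77e-06). *Stat5b*, a near-identical gene 8626 bp away, can share reads with *Stat5a*, and *Stat3* overlaps it on the opposite strand, so the levels of *Stat5a* are uncertain to that extent. *Gata3* shares part of its span with *9230102O04Rik* on the same strand, where reads can be left out of both.

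**Figure D2:**
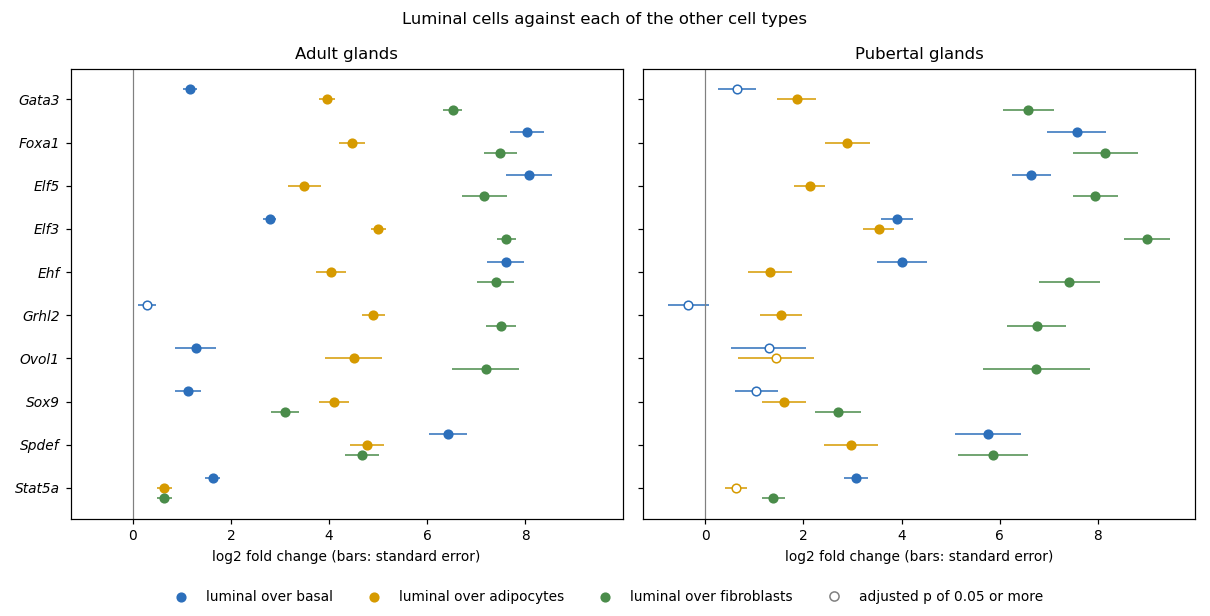
Log2 fold changes of luminal cells over basal cells, adipocytes and fibroblasts for the 10 factors, in adult glands on the left and pubertal glands on the right, with standard errors as bars. Filled points have an adjusted p under 0.05. *Grhl2* lies next to 0 against basal cells in adult (0.29) and pubertal glands (-0.35), and *Stat5a* has the smallest values against fibroblasts (0.64 in adult and 1.38 in pubertal glands).

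Between basal cells and fibroblasts, 7 of the 10 factors differed, 5 higher and 2 lower in basal cells, where 77% of all genes were called, 39.5% higher and 37.5% lower. The 5 were *Gata3*, *Elf3*, *Grhl2*, *Ovol1* and *Sox9*. The 2 lower ones were *Stat5a* and *Spdef*, where *Spdef* had a few reads per library in both types (log2 fold change -1.75, standard error 0.50, edgeR adjusted p = 0.00324). Without fibroblast estrus replicate 2 the value for *Spdef* was -0.36 and no longer passed (edgeR adjusted p = 0.92). *Foxa1*, *Elf5* and *Ehf* did not pass between basal cells and fibroblasts, and their adult means in these types were at most 1.42 CPM.

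On a scale that corrects for exon length (RPKM, CPM per kilobase of exon), the order in adult luminal cells was *Elf3* (50.4 ± 7.72 RPKM, SD, n = 8), *Sox9* (38.5 ± 9.30), *Ehf* (36.1 ± 4.05), *Gata3* (30.8 ± 7.64), *Foxa1* (23.6 ± 3.74), *Stat5a* (17.4 ± 4.17), *Elf5* (8.61 ± 2.19), *Ovol1* (8.31 ± 1.45), *Grhl2* (7.24 ± 0.83) and *Spdef* (4.87 ± 1.44). The ranges of every pair of neighbours in this order overlapped. In adult basal cells the order began with *Sox9* (17.8 ± 2.70 RPKM), *Gata3* (13.5 ± 2.11), *Elf3* (7.34 ± 1.79), *Grhl2* (5.92 ± 1.004), *Stat5a* (5.603 ± 1.45) and *Ovol1* (3.43 ± 1.02). A gap followed, since the lowest *Ovol1* library (1.60 RPKM) was above the highest library of *Ehf* (0.448 RPKM), the next gene in that order.

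Of 17 relatives of the factors within their families 13 were tested between adult luminal and basal cells, and 4 were higher in luminal cells and 7 lower, beside 35.3% higher and 38.3% lower of all genes. Their median log2 fold change was -0.66, beside -0.04 over all genes. *Stat5b* moved with *Stat5a*, with 77.4 ± 8.60 CPM in luminal cells and 14.0 ± 3.12 CPM in basal cells (log2 fold change 2.49, edgeR adjusted p = 9.21e-16). *Grhl1* differed between the layers where *Grhl2* did not, with 75.3 ± 11.03 CPM in luminal cells and 6.404 ± 1.91 CPM in basal cells (log2 fold change 3.55, edgeR adjusted p = 2.23e-10). *Foxa3* and *Sox8* ran the other way. *Foxa3* had 0.210 ± 0.136 CPM in luminal cells and 3.45 ± 0.850 CPM in basal cells (log2 fold change -4.07, edgeR adjusted p = 4.85e-11), and *Sox8* had 0.379 ± 0.166 CPM in luminal cells and 13.3 ± 2.22 CPM in basal cells (log2 fold change -5.15, edgeR adjusted p = 2.97e-13). The relatives with the highest luminal RPKM within a family were *Elf1* (32.7 RPKM), *Sox10* (23.96), *Stat5b* (14.0), *Grhl1* (13.6), *Ovol2* (4.00), *Foxa3* (0.103) and *Gata2* (0.0127). *Gata3* and *Foxa1* were thus the only members of their families, of 6 *Gata* and 3 *Foxa* genes, above 1 RPKM in adult luminal cells.

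Genes of the programs these factors are known for were counted by lists. The lists were chosen with earlier results of these data known, and the hormone-sensing and secretory ones hold genes known as luminal. Their counts over basal cells were thus close to set in advance and only describe the lists. Of all genes, 35.3% were higher in luminal than in basal cells. All 11 hormone-sensing luminal genes were higher in adult luminal than in basal cells (median log2 fold change 6.13), with the prolactin receptor *Prlr* at 664 ± 168 CPM in luminal and 0.416 ± 0.192 CPM in basal cells, *Ly6a* at 268 ± 73.0 CPM in luminal and 1.72 ± 0.440 CPM in basal cells, *Prom1* at 254 ± 76.3 CPM in luminal and 5.39 ± 1.95 CPM in basal cells, and *Cited1* at 144 ± 32.3 CPM in luminal and 1.57 ± 0.302 CPM in basal cells (SD, n = 8 each). All 12 secretory luminal genes were higher too (median 6.88). Among them were the monocyte receptor gene *Cd14* (log2 fold change 6.66), the retinaldehyde dehydrogenase *Aldh1a3* (6.12), the receptor kinase *Kit* (7.10) and transferrin, *Trf* (3.54). Of 10 genes of epithelial junctions and splicing, all were higher in luminal cells (median 3.18), with *Rab25* (4.38), *Cldn3* (7.11), *Cldn7* (6.56) and *Esrp2* (1.98) as the most certain. This list holds *Epcam*, on which the cells were sorted, so its value is no finding. Of the same 10, 9 were higher in basal cells than in fibroblasts, beside 39.5% of all genes.

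Of 7 feedback and target genes of *Stat5*, only *Bcl2l1* was higher in luminal than in basal cells (log2 fold change 2.24, edgeR adjusted p = 9.2e-14), while 4 were lower, beside 35.3% higher and 38.3% lower of all genes. *Bcl2l1* encodes a protein that protects from cell death. *Socs1* had a log2 fold change of -3.22, *Socs2* of -1.003 and *Socs3* of -1.50. These 3 genes encode inhibitors of cytokine signaling. Of 6 mesenchymal transcription factors, 4 were lower in luminal than in basal cells and 2 did not pass, beside 38.3% lower of all genes. *Snai2*, a repressor of E-cadherin, had 0.0665 ± 0.0494 CPM in luminal cells and 47.6 ± 9.25 CPM in basal cells. *Zeb2* had 0.0701 ± 0.0506 CPM in luminal cells and 0.595 ± 0.260 CPM in basal cells, *Twist2* had 0.0207 ± 0.0222 CPM in luminal cells and 0.270 ± 0.203 CPM in basal cells, and *Twist1* had no read in any adult luminal library and 0.317 ± 0.164 CPM in basal cells.

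Across the 32 adult libraries the genes with the most similar profile (Pearson r of log2 CPM) were the following. *Gata3* was closest to *Ap1m2* (0.985), *Crybg1* (0.985) and *Esrp1* (0.983), and *Grhl2* to *Tfap2b* (0.982), *Esrp1* (0.980) and *Kdf1* (0.973). *Foxa1* was closest to *Cldn8* (0.977), *Cadps2* (0.969) and *BC030870* (0.966), *Elf5* to *Clic6* (0.957), *Prlr* (0.956) and *Rin2* (0.955), *Ehf* to *Alcam* (0.971), *Tmprss4* (0.970) and *Ly6d* (0.967), and *Spdef* to *Nfe2l3* (0.952), *Mum1l1* (0.950) and *Nrxn3* (0.946). *Elf3* was closest to *Elmo3* (0.986), *Cblc* (0.981) and *Arg2* (0.980), *Sox9* to *Klf5* (0.979), *Itpr3* (0.975) and *Ephb6* (0.975), and *Stat5a* to *Inhbb* (0.913), *Abca3* (0.911) and *Cd14* (0.891). Genes with a profile like that of *Ovol1* included *Epgn* (0.968) and *Tfap2a* (0.968). These values describe profiles over 4 cell types and their libraries share cell type, pool and depth. Among the factors themselves r was 0.968 for *Gata3* and *Grhl2*, 0.966 for *Gata3* and *Elf3* and 0.949 for *Foxa1* and *Elf5*. The lowest values were those of *Stat5a* with *Grhl2* (-0.055), with *Ovol1* (0.0326) and with *Gata3* (0.0329), and *Gata3* and *Foxa1* had 0.546.

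In puberty, when the ducts grow into the fat pad, the luminal pattern was largely in place, with only 2 libraries per type to measure it. A total of 6 factors were higher in luminal than in basal cells, where 37.2% of all 14263 genes were called, 18.3% higher and 18.9% lower. They were *Foxa1* (109 and 59.6 CPM in luminal cells, against 0.613 and 0.258 CPM in basal cells, log2 fold change 7.57), *Elf5* (60.7 and 84.6 CPM in luminal, against 0.818 and 0.620 CPM in basal cells, 6.65), *Ehf* (199 and 149 CPM in luminal, against 8.95 and 12.7 CPM in basal cells, 4.00), *Elf3* (100.6 and 104 CPM in luminal, against 7.05 and 6.57 CPM in basal cells, 3.91), *Spdef* (10.8 and 12.3 CPM in luminal, against 0.102 and 0.310 CPM in basal cells, 5.76) and *Stat5a* (178 and 151 CPM in luminal, against 21.3 and 17.99 CPM in basal cells, 3.07). The luminal libraries of these 6 genes were above both basal ones in each case.

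The other 4 did not pass this comparison. *Gata3* had 141 and 62.3 CPM in pubertal luminal cells, against 67.5 and 62.9 CPM in basal cells, so luminal replicate 2 was below both basal libraries (log2 fold change 0.64, standard error 0.38, edgeR adjusted p = 0.222). *Grhl2* had 71.3 and 33.5 CPM in luminal cells, against 75.3 and 57.7 CPM in basal cells (log2 fold change -0.35, standard error 0.42, edgeR adjusted p = 0.542). Without luminal replicate 1 the log2 fold change of *Gata3* was -0.02, and without luminal replicate 2 it was 1.11 and passed (edgeR adjusted p = 0.0303). For *Grhl2* it was 0.10 without luminal replicate 2. Luminal replicate 2 had 12911831 counts and a luminal marker sum of 30544 CPM, against 19033586 counts and 13929 CPM in replicate 1, and the part of this difference in the levels was not tested. *Ovol1* had 41.5 and 42.5 CPM in luminal cells, against 16.7 and 17.7 CPM in basal cells, and *Sox9* had 119 and 70.5 CPM in luminal cells, against 42.9 and 49.2 CPM in basal cells. Their log2 fold changes were 1.29 (edgeR adjusted p = 0.217) and 1.04 (edgeR adjusted p = 0.0987). With the collection day as a block, which pairs the libraries of the same mice and gives no weight to adipocyte replicate 2, the only library of its day, both passed (*Ovol1* edgeR adjusted p = 0.00146, *Sox9* 0.0282). *Ovol1* also passed without adipocyte replicate 1 (edgeR adjusted p = 0.00288) or adipocyte replicate 2 (edgeR adjusted p = 0.00309).

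Against pubertal fibroblasts all 10 factors were higher in luminal cells, where 52.2% of all genes were called, 25% higher and 27.1% lower, with log2 fold changes between 1.38 (*Stat5a*) and 9.01 (*Elf3*). Against pubertal adipocytes 8 were higher, where 39.7% of all genes were called, 14.6% higher and 25.1% lower. The pubertal adipocyte replicates 1 and 2 held 1019 and 509 CPM of the luminal and 617 and 2585 CPM of the basal marker list, and the part of epithelial cells in their factor levels was not tested. *Stat5a* had 178 and 151 CPM in luminal cells, against 104 and 102.5 CPM in adipocytes (log2 fold change 0.62, edgeR adjusted p = 0.0621). It passed without luminal replicate 2 (edgeR adjusted p = 0.0383) and with DESeq2 (adjusted p = 0.0297). *Ovol1* had 2.79 and 27.1 CPM in the adipocyte libraries (log2 fold change 1.44, edgeR adjusted p = 0.168), and with the collection day as a block its log2 fold change was 3.83 (edgeR adjusted p = 5.5e-06). It was 3.85 without adipocyte replicate 2 (edgeR adjusted p = 8.49e-05), the library with 956 CPM of epidermal markers against 15.9 CPM in replicate 1. The call of *Ehf*, at 35.1 and 99.4 CPM in adipocytes (log2 fold change 1.32, edgeR adjusted p = 0.0472), was lost without any single one of the 7 pubertal libraries other than adipocyte replicate 2. The calls of *Grhl2* and *Sox9* were each lost without luminal replicate 1 (edgeR adjusted p = 0.0916 and 0.091) and without 1 of the adipocyte libraries (edgeR adjusted p = 0.0697 for *Grhl2* without replicate 2 and 0.0946 for *Sox9* without replicate 1). Without luminal replicate 1 the number of factors higher in luminal cells fell to 5.

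The luminal over basal difference itself differed between adult and pubertal libraries for 3 of the 10 factors, in a fit of the 20 luminal and basal libraries. Of 13463 genes, 23.1% were called, 11.9% with the larger and 11.1% with the smaller value in adults. Calls are thus common in this comparison, and 3 of 10 is near that share. This comparison, called the change with age below, sets the adult difference (mean of 4 stages) against the pubertal one. A shift that all libraries of a run share cancels. A shift particular to a cell type in a run does not, so age and run cannot be told apart here either. *Ehf* had the larger difference in adult glands, by 3.65 on the log2 scale (standard error 0.45, edgeR adjusted p = 0.00015). Its luminal level was 201 ± 22.6 CPM in adults (SD, n = 8) and 174 CPM in puberty (n = 2), while its basal level was 1.11 ± 0.734 CPM in adults and 10.8 CPM in puberty. Both pubertal basal libraries (8.95 and 12.7 CPM) were above all 8 adult ones (at most 2.50 CPM). These pubertal basal libraries also carried epidermal markers, with sums of 111 and 192 CPM, against 3.80 to 7.26 CPM in adult basal libraries. All 6 markers of that list had reads there, and *Krt1* had 34.3 and 55.8 CPM while *Lor* had 0.207 CPM or less. The part of such cells in the *Ehf* level was not tested.

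*Elf3* and *Stat5a* had the smaller luminal over basal difference in adult glands. For *Elf3* the change was -1.05 on the log2 scale (standard error 0.24, edgeR adjusted p = 0.00806), with luminal levels of 112 ± 17.1 CPM in adults and 102 CPM in puberty and basal levels of 16.3 ± 3.98 CPM in adults and 6.81 CPM in puberty. Every adult basal library was above both pubertal ones. For *Stat5a* the change was -1.38 (standard error 0.32, edgeR adjusted p = 0.00757), with luminal levels of 124 ± 29.8 CPM in adults and 164 CPM in puberty and basal levels of 39.97 ± 10.4 CPM in adults and 19.6 CPM in puberty. Adult and pubertal basal libraries did not overlap here either. Without pubertal basal replicate 2 the *Stat5a* value was -1.31 and no longer passed (edgeR adjusted p = 0.051). *Gata3* (0.58), *Grhl2* (0.68) and *Elf5* (1.498) had positive values that did not pass (edgeR adjusted p = 0.195, 0.14 and 0.125). *Gata3* and *Grhl2* passed without pubertal luminal replicate 1, at 1.32 (edgeR adjusted p = 0.000932) and 1.36 (edgeR adjusted p = 0.00209). *Elf5* passed without basal estrus replicate 2, at 2.81 (edgeR adjusted p = 0.0315), and with DESeq2, at 1.54 (adjusted p = 0.0355). With the pool of mice as a block *Grhl2* passed as well, at 0.79 (edgeR adjusted p = 0.0446).

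**Figure D3:**
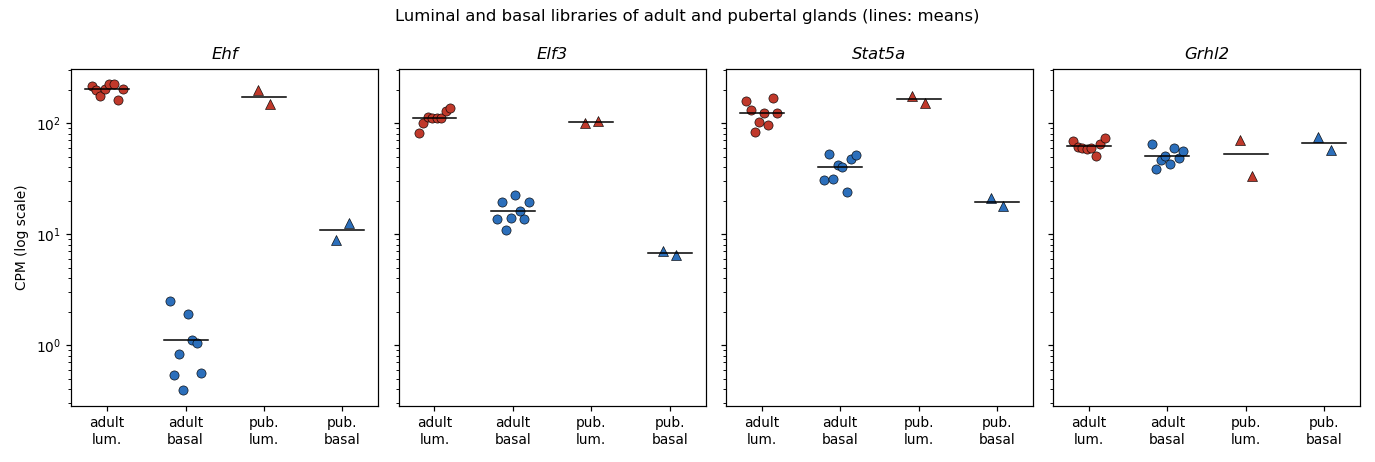
Levels of *Ehf*, *Elf3*, *Stat5a* and *Grhl2* in adult luminal, adult basal, pubertal luminal and pubertal basal libraries, as CPM on a log scale, with means as lines. The pubertal basal points lie above the adult basal ones for *Ehf* and below them for *Elf3* and *Stat5a*, while *Grhl2* overlaps between the epithelial types.

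Within adult luminal cells no factor passed the test for a change over the estrous cycle. The test for any difference between the 4 stages called 0 of the 10, with 4 at an unadjusted p under 0.05, where 15 of 12306 genes (0.122%) were called in all. DESeq2 called 1 of the 10. Stage means of a factor differed by between 1.09-fold (*Elf5*) and 1.77-fold (*Spdef*), and for 3 factors a pair of replicates of the same stage differed by more than the stage means did. *Elf5* is the clearest such case, with 34.1 and 71.4 CPM in the metestrus replicates.

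*Gata3* came closest to a stage difference. It had 141 and 62.3 CPM in puberty, 173 and 160 CPM in proestrus, 136 and 90.1 CPM in estrus, 114 and 105 CPM in metestrus and 99.6 and 102 CPM in diestrus. Both proestrus libraries were above all other adult luminal ones. The log2 fold change of proestrus over the mean of the other stages was 0.62 (standard error 0.14) and missed the threshold (edgeR adjusted p = 0.114), where 58 genes (0.471%) were called, 0.382% higher and 0.0894% lower. DESeq2 gave 0.61 and an adjusted p of 0.0112. *Elf3* followed the same order, with 129 and 138 CPM in proestrus and at most 113 CPM in the other adult libraries (log2 fold change 0.35, standard error 0.10, edgeR adjusted p = 0.21). *Foxa1*, *Grhl2*, *Ovol1* and *Stat5a* also had their highest adult stage mean in proestrus. No factor passed for proestrus, with 5 at an unadjusted p under 0.05.

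*Spdef* and *Stat5a* were at the extremes of their range in estrus. *Spdef* had 16.8 and 12.54 CPM in estrus, against 6.76 to 13.8 CPM in the other stages (log2 fold change 0.56, standard error 0.19, edgeR adjusted p = 0.434). *Stat5a* had 83.7 and 103 CPM in estrus, against 97.4 to 170 CPM in the other stages (log2 fold change -0.52, standard error 0.17, edgeR adjusted p = 0.387). The estrus libraries overlapped with the others for both genes. Without the filter on low counts both passed (edgeR adjusted p = 0.0123 for *Spdef* and 0.00735 for *Stat5a*). Against the mean of the other stages, 0 factors passed for estrus, metestrus and diestrus, with 2, 0 and 1 at an unadjusted p under 0.05, and DESeq2 also called 0. Of all genes, 0% were called in each of these 3 comparisons. The lists of hormone-sensing, secretory and junction genes had 0 calls for any of the stages in luminal cells.

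**Figure D4:**
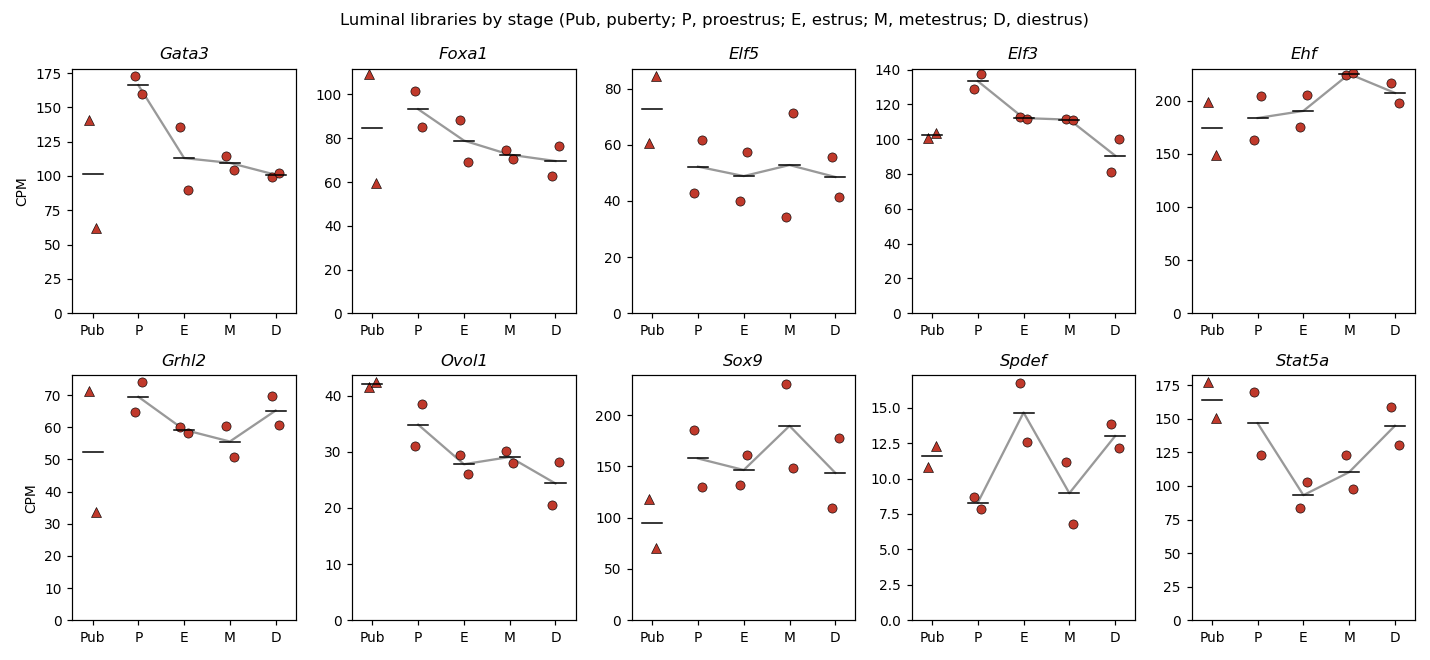
CPM of the 10 factors in luminal libraries from puberty (triangles) and proestrus, estrus, metestrus and diestrus (circles), with the mean of each pair as a line. The highest adult stage mean is that of proestrus for *Gata3*, *Foxa1*, *Elf3*, *Grhl2*, *Ovol1* and *Stat5a*. The *Elf5* replicates of a stage lie farther apart than the stage means.

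Basal cells and fibroblasts gave 0 factors in the same test, of 7 and 5 factors that passed the filter on low counts. The lowest adjusted p was 0.296 in basal cells, for *Sox9*, and 0.174 in fibroblasts, for *Grhl2*. Of all genes, 0% were called in both types, with 0 and 2 factors at an unadjusted p under 0.05, and DESeq2 called 0 factors in each.

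In adipocytes the test for any stage difference called 0 of 9 factors tested, with 6 at an unadjusted p under 0.05, where 0.0146% of all genes were called. DESeq2 called 7. Tested against the average of proestrus, estrus and metestrus, diestrus had 6 of the 9 higher, where 11% of 13726 genes were called, 7.53% higher and 3.52% lower. *Gata3* had 22.4 and 38.8 CPM in diestrus, against 3.19 to 6.95 CPM in the other 6 adult adipocyte libraries (log2 fold change 2.61, standard error 0.27, edgeR adjusted p = 0.0144). *Ehf* had 49.97 and 93.2 CPM in diestrus, against 2.40 to 10.8 CPM (log2 fold change 3.36, edgeR adjusted p = 0.0252), and *Grhl2* had 23.1 and 7.56 CPM, against 0.559 to 1.64 CPM (log2 fold change 3.82, edgeR adjusted p = 0.0144). *Elf3* had 10.997 and 6.14 CPM in diestrus, against 2.01 to 2.97 CPM (log2 fold change 1.72, edgeR adjusted p = 0.0251). For these 4 genes both diestrus libraries were above all others.

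The 2 diestrus libraries were not alike in the remaining factors. The values of *Sox9* were 20.2 CPM for replicate 1 and 132 CPM for replicate 2, against 2.46 to 7.28 CPM in the other stages (log2 fold change 4.02, edgeR adjusted p = 0.0266). *Ovol1* had 2.74 and 62.4 CPM, against 0.0559 to 2.79 CPM (log2 fold change 6.19, edgeR adjusted p = 0.0381), so only replicate 2 was above the other stages. Without that library its log2 fold change was 2.66 and no longer passed (edgeR adjusted p = 0.18). *Elf5* had 20.1 and 3.69 CPM in replicates 1 and 2, against 0.838 to 6.78 CPM (log2 fold change 1.86, edgeR adjusted p = 0.0901), and it passed without replicate 2 (log2 fold change 2.64, edgeR adjusted p = 0.0186), with DESeq2 (adjusted p = 0.0205) and in a joint fit of the 32 adult libraries (edgeR adjusted p = 0.0087). *Foxa1*, with 7.98 and 1.82 CPM, against 1.51 to 6.48 CPM, had a log2 fold change of 0.62 that did not pass (edgeR adjusted p = 0.478) and was -0.70 without replicate 1. *Stat5a*, with 113 and 72.6 CPM, against 62.1 to 102.5 CPM, did not pass either (log2 fold change 0.32, edgeR adjusted p = 0.333).

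The marker lists also differed between the diestrus libraries. The 5 luminal markers summed to 1076 and 127 CPM in diestrus replicates 1 and 2, against 121 to 320 CPM in the other adult adipocyte libraries. The 8 basal markers summed to 645 and 4405 CPM, against 133 to 482 CPM, and the 6 epidermal markers found in the tables to 19.5 and 1812 CPM, against 19.4 to 243 CPM. Within the basal list, *Krt14* (1910 CPM), *Krt17* (1114 CPM), *Krt5* (913 CPM) and *Trp63* (279 CPM) carried the sum of diestrus replicate 2, all genes that the epidermis expresses too, while *Acta2* (70.5 CPM) and *Oxtr* (19.4 CPM), genes of contractile cells, lay inside the range of the other stages, and *Mylk* (51.4 CPM) and *Myh11* (47.6 CPM) lay just above it. The 5 adipocyte markers summed to 9312 and 3058 CPM, against 7885 to 13925 CPM. Thus the library with the most luminal marker RNA had the higher *Elf5*, *Foxa1*, *Elf3*, *Grhl2*, *Spdef* and *Stat5a*, and the library with the most basal keratin and epidermal marker RNA had the higher *Ovol1*, *Sox9*, *Ehf* and *Gata3*. The part of epithelial and skin cells in the diestrus values was not tested. All 6 calls were lost with the replicate number as a block (edgeR adjusted p = 0.0557 to 0.112). They were also lost without any single one of proestrus replicate 2, either estrus library or either metestrus library (edgeR adjusted p at least 0.0514), and those of *Ovol1* and *Sox9* without proestrus replicate 1 (edgeR adjusted p = 0.0632 and 0.0531). The luminal over adipocyte comparison of adult glands did not rest on these libraries, since all 10 factors were called higher in luminal cells without both diestrus libraries.

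**Figure D5:**
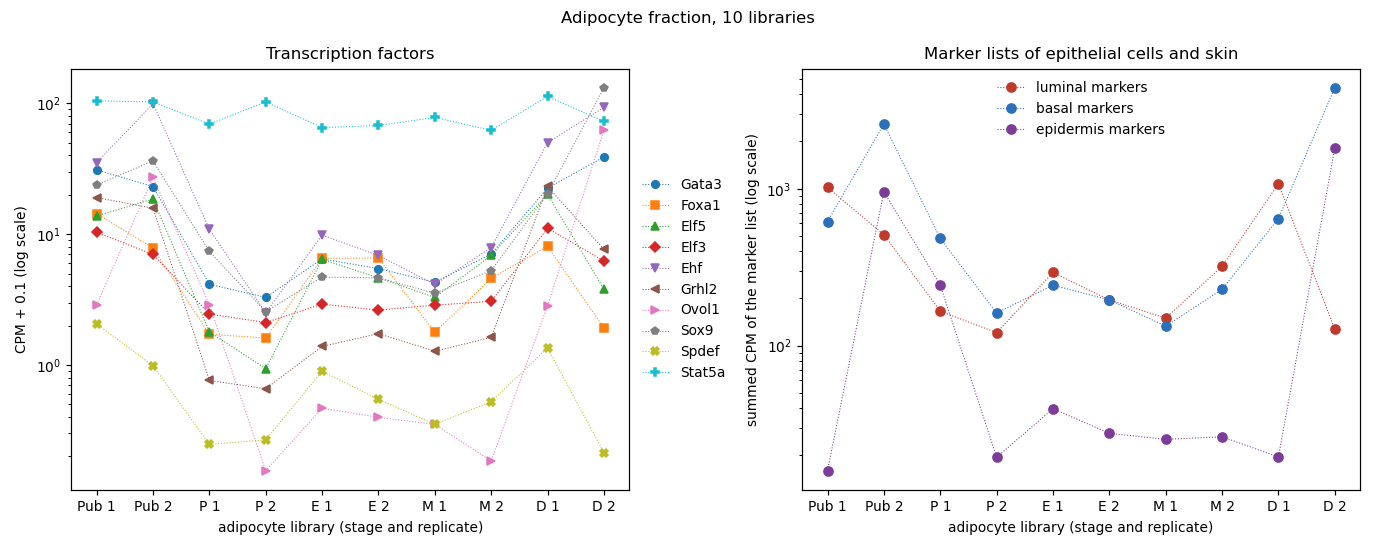
The 10 adipocyte libraries, with CPM + 0.1 of the factors on the left and summed CPM of the luminal, basal and epidermal marker lists on the right, both on log scales. Pub, P, E, M and D stand for puberty, proestrus, estrus, metestrus and diestrus, and dotted lines only guide the eye. The pubertal and diestrus libraries hold the highest levels of most factors, and their marker sums differ between replicates, while *Stat5a* stays between 62.1 and 113 CPM.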

How the data were processed

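The authors sequenced polyA RNA as 65-base single-end stranded reads, aligned them to GRCm38/mm10 with TopHat2 2.1 and Bowtie 1.1.0, and deposited HTSeq gene counts, 1 whole-number table for 32 adult and 1 for 8 pubertal libraries. The strand setting of the counting is not given in the sources used here, so reads of overlapping antisense genes could not be separated with certainty. Normalized tables were not used. All columns were mapped to samples by name.

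Tests covered genes over 1 CPM in 2 or more of the fitted libraries and used edgeR 4.0.16 (R 4.3.3, quasi-likelihood F-test, TMM scaling, Benjamini-Hochberg threshold 0.05). The adult fit had 16 groups of cell type and stage, stage tests used the 8 adult libraries of a cell type, and the age test used the 20 luminal and basal libraries. Scripts were tested on simulated data. Displayed CPM and RPKM share TMM factors (0.694 to 1.26) over 40 libraries and GENCODE M21 exon lengths. Genes were named by rule: all 10 factors, the list genes with the smallest adjusted p between luminal and basal cells, the relative of each family with the highest luminal RPKM, and the 3 genes most like each factor, of which 1 is not reported here. The members and lists were chosen with earlier results of these data known. Alternatives were DESeq2 1.42.0, its size factors, no filter, edgeR's newer dispersion fit, other groupings and each library left out.

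The 4 cell types of a pool came from the same mice, as the study's sample table gives it, and pubertal libraries of the same collection day share mice too, so these numbers pair the samples, except that adipocyte replicate 2 of puberty is from a day of its own. Deviations of libraries of 1 pool correlated between -0.02 and 0.23 (median 0.0624), and those of 1 pubertal day between 0.0588 and 0.218. Between stages the replicate number was not treated as a pairing: the study used it for early or late pools where these differed and otherwise pooled by cell number, and deviations of same-numbered libraries correlated between -0.66 and 0.35. No replicate pair agreed within sampling noise (chi-square per degree of freedom 21.7 to 358).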

Additional observations from a re-analysis of the deposited data

Results flagged for a closer look

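In 7 of 40 sets of 8 adult libraries (10 factors in 4 cell types), the highest library lay farther from the rest than Dixon's 95% limit for 8 values. About 1 of 20 sets of independent values from a normal distribution pass that limit. The sets here mix estrous stages and share libraries between factors, so their count cannot be set against that rate. A total of 5 of the 7 were in adipocytes. Diestrus replicate 1 was the high one for *Elf5* (20.1 CPM), *Elf3* (10.997 CPM) and *Grhl2* (23.1 CPM), and diestrus replicate 2 for *Ovol1* (62.4 CPM) and *Sox9* (132 CPM). In fibroblasts, *Foxa1* was high in diestrus replicate 2 (1.60 CPM) and *Ovol1* in estrus replicate 2 (0.933 CPM), at 27 and 15 reads.

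The luminal over basal difference differed between adult and pubertal libraries for 3 of the 10 factors by the test of that change itself (edgeR). Of all genes, 23.1% were called in that test. The change was 3.65 on the log2 scale for *Ehf*, -1.05 for *Elf3* and -1.38 for *Stat5a*, and age and run cannot be told apart.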

How the results depend on the processing

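With 1 library left out, 1589 of 1648 values of the factors kept direction and side of the threshold, and of 517 values under other alternatives 496 did. The number of factors called ran between 9 and 10 for adult luminal over basal cells, 6 and 7 for basal cells over fibroblasts and for pubertal luminal over basal cells, 5 and 8 for pubertal luminal cells over adipocytes, 2 and 5 for the change with age, 0 and 6 for adipocyte diestrus and 0 and 5 for any stage difference in adipocytes. It stayed at 10 for the other luminal comparisons and at 0 for the other stage tests. Uncalled values changed sign with 1 library left out for pubertal luminal over basal *Gata3* (-0.021 to 1.11) and *Grhl2* (-0.95 to 0.10) and for *Foxa1* in adipocyte diestrus (-0.70 to 1.35). Without the filter on low counts, any stage difference called 3 factors in luminal cells, 2 in adipocytes and 2 in fibroblasts, luminal proestrus 2 and luminal estrus 2 (*Spdef* 0.57 and *Stat5a* -0.51). DESeq2 called 1 factor for any stage in luminal cells, 1 for luminal proestrus (*Gata3* 0.61) and 7 for any stage in adipocytes. The joint fit of all 32 adult libraries called 8 in adipocytes and 3 in fibroblasts. Stage counts over all genes moved most. Without the filter and with DESeq2 they were 1638 and 506 for any stage in luminal cells (15 as reported), 859 and 295 for luminal proestrus (58), 671 and 179 for estrus, 385 and 50 for metestrus and 535 and 64 for diestrus (0 each), 2789 and 1543 for any stage in fibroblasts (0), 1739 and 690 for any stage in basal cells (0) and 154 and 2400 for any stage in adipocytes (2), and adipocyte diestrus had 3151 with DESeq2 (1516). The joint fit gave 21 for luminal estrus, 232 in basal cells, 2534 in adipocytes, 3349 for adipocyte diestrus and 2350 in fibroblasts, and the replicate block 7 for any stage in luminal cells, 0 in adipocytes and 2 for adipocyte diestrus. With 1 library left out, adipocyte diestrus ran between 0 and 3317 genes, the change with age between 1225 and 5954 and pubertal luminal over basal cells between 2807 and 6310. The replicate block by pool changed no adult call between cell types and, by replicate number, called 0 factors in adipocyte diestrus (edgeR adjusted p 0.0557 to 0.112). By collection day it gave pubertal luminal over basal *Ovol1* 1.29 and *Sox9* 0.95, and *Ovol1* over adipocytes 3.83. The cause of these changes was not tested. Depth limits *Foxa1*, *Elf5* and *Spdef* in basal cells (45, 26 and 19 reads over the adult libraries) and in fibroblasts (60, 45 and 47 reads).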
